A study of Mus musculus with 9 samples.

Results

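NRF2 is the transcription factor encoded by Nfe2l2, and 10 genes of its pathway outside glutathione metabolism were followed on expression arrays of mouse embryonic fibroblasts (MEFs) that lack enzymes of disulfide bond formation. The group held Nfe2l2 itself, its relative Nfe2l1, its inhibitor Keap1, and the target genes Hmox1, Nqo1, Srxn1, Me1, Taldo1, Pgd and Osgin1. Each gene was read from its probe set with a single gene symbol, taking the brightest over all arrays where there were several. All 10 genes were measured, out of 19938 genes read in the same way, and all 10 lay above the array median on each of the 9 arrays.

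In resting cells KEAP1 holds NRF2 and hands it to a CUL3 ubiquitin ligase for destruction by the proteasome. Electrophiles and oxidants modify cysteines of KEAP1, so that newly made NRF2 escapes, enters the nucleus, pairs with a small MAF protein and binds antioxidant response elements. The control therefore acts chiefly on NRF2 protein, and the mRNA of its targets is the usual readout in fibroblasts and other cells. Its relative NRF1, encoded by Nfe2l1, is a glycoprotein of the endoplasmic reticulum (ER) that drives proteasome subunit genes when proteasome activity is short.

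The arrays compared 3 genotypes, with 3 arrays each, in T antigen-transformed MEFs that the labels give a C57B/L6 background. The study's methods describe both primary and T antigen-immortalized MEFs, by figure, and do not say which the arrays used. The reference cells were labelled wild type (WT). DM cells were mutant for both ER disulfide oxidases, Ero1α and Ero1β, and TM cells were in addition mutant for Prdx4, the peroxiredoxin of the ER. In the study's methods, where m is the mutant allele, Ero1β is m/m in control, DM and TM cells alike. By the same account Ero1α is m/+ in control cells and m/m in both mutants, while Prdx4 is +/+ in control and DM cells and m/y in TM cells. The Ero1β mutation would then be common to all the groups, including the cells labelled wild type. No treatment was labelled, and neither the labels nor the methods say if replicate arrays stand for different cultures or cell lines. The p-values therefore measure the spread between arrays, which may be technical. Values are log2 RMA expression levels, and a difference of 1 on this scale is a doubling.

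The arrays were closely alike in scale, with medians between 7.62 and 7.72. Over all genes, the arrays of one genotype correlated at 0.994 to 0.997 and those of different genotypes at 0.976 to 0.984. The mean level of Ero1a was 11.86 in WT, 9.46 in DM and 9.06 in TM, and that of Prdx4 was 10.56, 10.68 and 6.30, in the direction of the labels. Ero1b stood at 7.65, 7.70 and 7.94 in WT, DM and TM. The DM arrays stood apart in sex-linked transcripts. Xist averaged 12.56 in DM against 5.70 in WT and 5.72 in TM, and all 3 Y-linked genes measured were lower in DM than in WT. Fibroblast markers (8 genes) averaged 11.27 to 11.32 on the WT arrays, 11.03 to 11.07 on the DM arrays and 11.69 to 11.80 on the TM arrays. The higher TM average was not shared by the whole list. Its median log2 difference of TM from WT was 0.07, with Thy1 at 2.93 and Col3a1 at -0.47. Epithelial and mesothelial markers (11 genes) averaged at most 8.01 in WT, 8.69 to 8.82 in DM and 7.42 to 7.54 in TM. The 11 macrophage and 7 endothelial markers showed no call in any comparison, where 3.56% to 5.67% of all genes were called in each direction.

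The antioxidant response element is shown first because it is what joins the target genes. RefSeq promoter windows (GRCm38.p6, 250 bases before to 50 after the start) were at hand for 9 of the 10 genes, in 15 windows. The core TGACNNNGC, searched on both strands, occurred in 4 of these 15 windows and in 12.4% of all 32851 windows. The full spelling known for NRF2 with a small MAF protein, of the same length, TGACTCAGC or TGAGTCAGC on either strand, occurred in 3 of the 15 and in 0.822% of all windows. This second search was added after the promoters had been read, and a TGACTCAGC site also counts as a core. In the lines that follow, read 5′ to 3′ along the gene's own strand, capitals mark the match.
Nfe2l2, core, 240 bases before the start, chr2:75704885-75704913, minus strand: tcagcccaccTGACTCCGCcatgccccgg
Srxn1, full spelling, 45 bases before the start, chr2:152105469-152105497, plus strand: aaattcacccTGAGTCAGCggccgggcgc
Osgin1, full spelling in reverse, 99 bases before the start, chr8:119437038-119437066, plus strand: aggggcccctGCTGACTCAcgcttatgaa
Me1, core and full spelling, 6 bases before the start and running into the transcript, chr9:86695902-86695930, minus strand: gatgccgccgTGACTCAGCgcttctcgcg
Pgd, core, in the transcript of the second of its windows, chr4:149166061-149166089, minus strand: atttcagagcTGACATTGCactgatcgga
A match is a description of the letters and not a measured binding site. Srxn1 held a core as well, inside the transcript. The windows of Nqo1, Keap1, Taldo1 and Nfe2l1 held neither form, which says only that these letters are not in them.

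A gene was called changed where the adjusted p of the limma fit was under 0.05 and the change exceeded 1.5-fold. In DM against WT, Osgin1 rose and Nqo1 fell, so that 1 of the 10 genes was called in each direction. Among all genes 5.28% were called higher and 5.67% lower. In TM against WT none of the 10 was called, where the shares over all genes were 5.59% higher and 3.56% lower. At an unadjusted p under 0.05 with the same fold limit the count was also 0. In TM against DM, Nqo1 rose while Osgin1 and Pgd fell, beside 4.68% of all genes called higher and 3.61% called lower. The changes of the 10 genes thus went in both directions, and their median log2 difference was -0.09 in DM and -0.16 in TM against WT, where all genes had medians of 0.02 and -0.03.

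Many smaller differences passed the adjusted p and missed the fold limit. By the adjusted p alone, 1 of the 10 genes was higher and 3 were lower in DM than in WT, against 17.0% and 19.8% of all genes. In TM against WT these counts were 2 higher and 4 lower, against 13.8% and 18.0%. In TM against DM they were 4 and 3, against 15.4% and 16.5%.

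**Figure D1:**
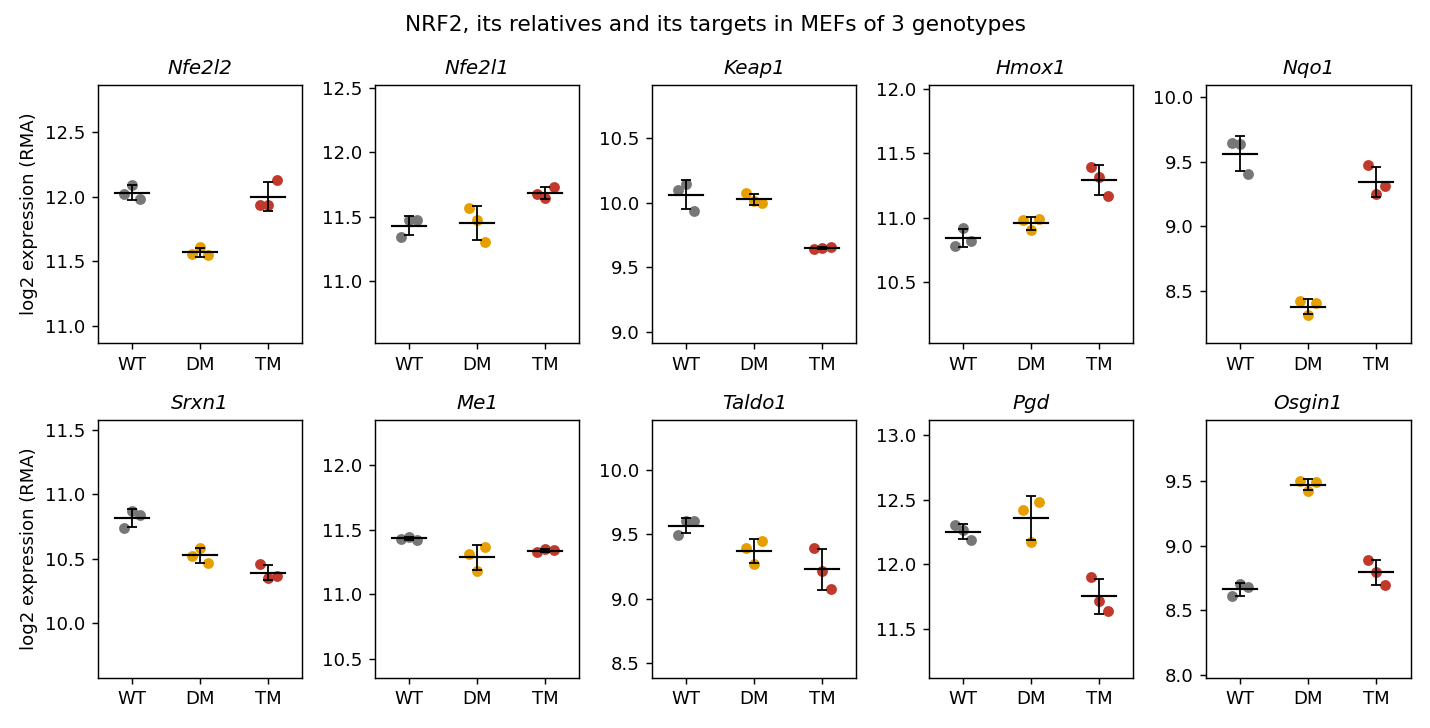
Log2 RMA expression (y axis, a span of 2 log2 units in every panel) of the 10 genes on the 3 arrays of each genotype (points), with the mean and SD (bars). Nqo1 and Nfe2l2 sit lowest in DM and Osgin1 highest in DM, while Keap1 sits lowest and Hmox1 highest in TM.

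Of the 3 regulators, Nfe2l2 was lower in DM alone. The level of Nfe2l2 mRNA was 12.02, 12.09 and 11.98 on the WT arrays, 11.55, 11.61 and 11.54 on the DM arrays and 11.93, 11.93 and 12.13 on the TM arrays. The reported values of TM arrays 1 and 2 were identical. All DM arrays lay below all others, and WT and TM overlapped. The log2 difference of DM from WT was -0.46 ± 0.066 (SE, n = 3 arrays each; limma adjusted p = 0.000111), a 1.38-fold lower level that stayed under the fold limit. TM exceeded DM by 0.43 (limma adjusted p = 0.000258), and its log2 difference from WT was -0.03 with a 95% interval from -0.18 to 0.11.

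Keap1, the inhibitor, was lower in TM. Its level was 10.10, 10.15 and 9.94 in WT, 10.08, 10.01 and 9.997 in DM and 9.64, 9.65 and 9.66 in TM. The TM arrays agreed within 0.0078 (SD) and lay below all 6 others, which overlapped each other. The log2 difference of TM from WT was -0.41 ± 0.063 (SE, limma adjusted p = 0.000246), or 1.33-fold, and that of DM was -0.03 (95% interval -0.17 to 0.10).

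Nfe2l1, which encodes NRF1, was highest in TM by a small margin. Its level was 11.34, 11.48 and 11.47 in WT, 11.57, 11.48 and 11.31 in DM and 11.68, 11.64 and 11.73 in TM. The TM arrays lay above all others, the closest pair being 11.57 in DM and 11.64 in TM, and WT and DM overlapped. The log2 difference of TM from WT was 0.25 ± 0.073 (SE, limma adjusted p = 0.0170), which no longer passed without WT replicate 1 or TM replicate 3. For TM against DM it was 0.23 (limma adjusted p = 0.0268), and 8 of 21 alternative settings lost it.

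Nqo1, the quinone reductase commonly used as a marker of NRF2 activity, fell most in DM. Its level was 9.64, 9.64 and 9.40 on the WT arrays, 8.42, 8.31 and 8.41 on the DM arrays and 9.47, 9.25 and 9.31 on the TM arrays. The highest DM array (8.42) lay far below the lowest of the others (9.25), while WT and TM overlapped. The log2 difference of DM from WT was -1.19 ± 0.080 (SE, 95% interval -1.36 to -1.01; limma adjusted p = 1.32e-07), a 2.27-fold decrease, and 3.31% of all genes differed by more. TM exceeded DM by 0.97 on the log2 scale, or 1.96-fold (limma adjusted p = 1.16e-06). TM against WT gave -0.22 (95% interval -0.39 to -0.04; limma adjusted p = 0.0584), which missed the threshold.

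Osgin1, which encodes a growth inhibitor induced by oxidative stress, took the opposite course. Its level was 8.61, 8.70 and 8.68 in WT, 9.50, 9.42 and 9.49 in DM and 8.89, 8.80 and 8.70 in TM. All DM arrays lay above all others, and the lowest TM array lay within the WT range. Osgin1 rose in DM by 0.81 ± 0.063 on the log2 scale (SE, 95% interval 0.67 to 0.95; limma adjusted p = 5.26e-07), or 1.75-fold. From DM to TM it fell by 0.68, or 1.60-fold (limma adjusted p = 3.5e-06), and TM against WT gave 0.13 (95% interval -0.0045 to 0.27). Its promoter window holds the full spelling printed above and that of Nqo1 holds neither spelling, and both genes changed in DM, in opposite directions.

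Some other transcripts also set the DM arrays apart from WT and TM together, and others differed from WT in both mutants. Besides Xist, the epithelial and mesothelial list had 4 of 11 genes called higher and 1 lower in DM against WT. The shares over all genes were 5.28% higher and 5.67% lower. Of the 11 genes, 9 lay above the array median in DM against 5 in WT and 2 in TM. The list did not move as one. Its genes Upk3b and Msln, both mesothelial markers, differed by 5.07 and -1.43 in DM on the log2 scale, and by -0.14 and -3.61 in TM. Krt18 and Cdh1 rose in DM by 2.69 and 1.14 and Krt14 rose by 0.84, while Krt8, the usual partner of Krt18, was at 0.06. The mean WT levels of Upk3b, Krt18, Cdh1 and Krt14 lay below every array median. Krt19 (-0.40) and Epcam (-0.34) were lower past the adjusted p, and they were lower in TM as well (-1.81 and -0.42). Of the 8 fibroblast markers 1 was called higher and 2 lower in DM, beside the same shares over all genes. They were Pdgfrb by 1.18, Col1a2 by -1.71 and Pdgfra by -1.91. In TM, Pdgfrb differed from WT by 1.23, also a call, Col1a2 by 0.12 and Pdgfra by -0.21. Thy1 was called higher in TM, by 2.93, and was at -0.25 in DM. The calls in TM were thus 2 higher and 0 lower, beside 5.59% and 3.56% of all genes. Col3a1 differed by -0.47 in TM and -0.08 in DM. Col1a1 (0.53) and Fn1 (0.30) were higher in DM past the adjusted p, with values of 0.03 and 0.20 in TM. The part of these transcripts in the DM differences of Nqo1, Osgin1 and Nfe2l2 was not tested. In bulk samples such as these, fewer cells of a type and less RNA per cell cannot be told apart.

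**Figure D2:**
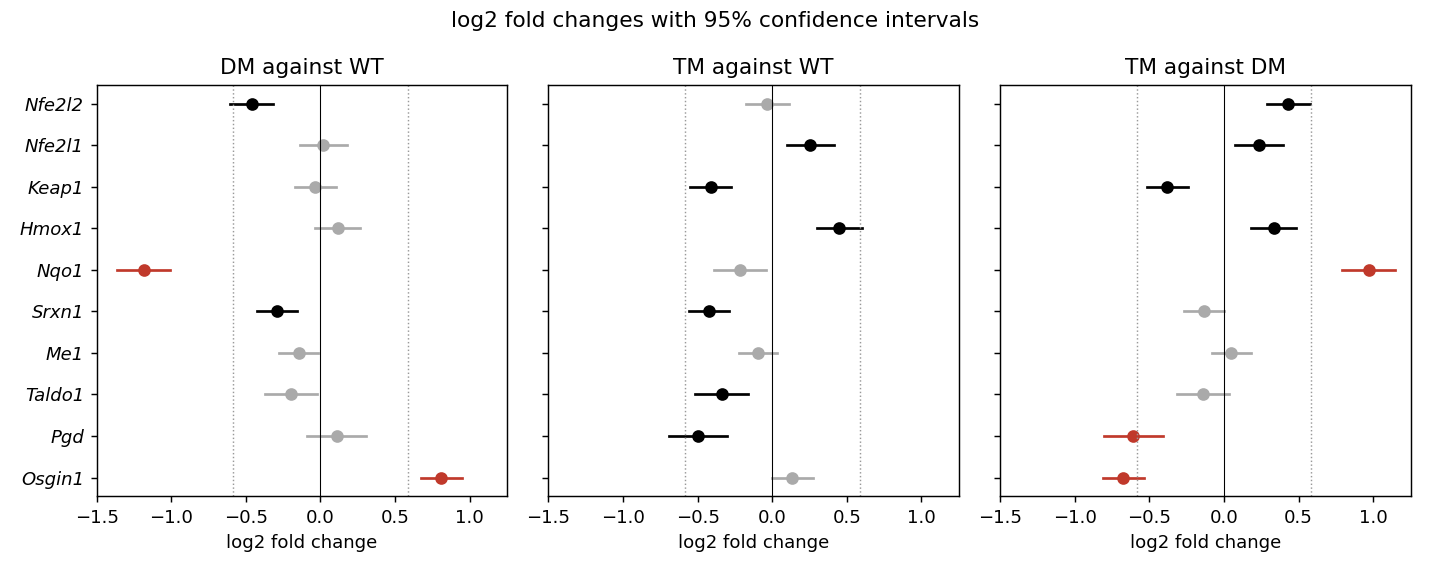
Log2 fold change (x axis) of the 10 genes in the 3 comparisons, with 95% confidence intervals (lines). Red marks calls (adjusted p under 0.05 and over 1.5-fold), black an adjusted p under 0.05 alone and grey neither, and the dotted lines are the 1.5-fold limits. The calls are Nqo1 and Osgin1 in DM, and Nqo1, Osgin1 and Pgd between TM and DM.

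Among the targets that make NADPH, Pgd was lowest in TM. It encodes 6-phosphogluconate dehydrogenase of the pentose phosphate pathway. Its level was 12.30, 12.26 and 12.19 in WT, 12.42, 12.17 and 12.49 in DM and 11.90, 11.72 and 11.64 in TM. All TM arrays lay below all others, and WT and DM overlapped. From DM to TM it fell by 0.61 on the log2 scale (95% interval -0.80 to -0.41; limma adjusted p = 0.000194), or 1.52-fold, close to the fold limit. The difference was -0.58 without DM replicate 1, -0.54 without DM replicate 3 and -0.55 without TM replicate 3, each under the limit though with an adjusted p under 0.05. TM against WT gave -0.50 ± 0.090 (SE, limma adjusted p = 0.000833), or 1.41-fold, and DM against WT gave 0.11 (95% interval -0.09 to 0.30).

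Taldo1 and Me1 showed smaller differences. Taldo1 encodes transaldolase, of the same pathway, and its level was 9.50, 9.60 and 9.60 in WT, 9.40, 9.27 and 9.44 in DM and 9.39, 9.21 and 9.08 in TM. Both mutants lay below all WT arrays and overlapped each other. The log2 difference from WT was -0.34 ± 0.081 in TM (SE, limma adjusted p = 0.00600) and -0.20 in DM (limma adjusted p = 0.0778). Me1, the cytosolic malic enzyme, read 11.43, 11.45 and 11.42 in WT, 11.31, 11.18 and 11.37 in DM and 11.32, 11.35 and 11.34 in TM. WT again lay above both mutants, by margins of 0.15 over DM and 0.10 over TM between the means that did not pass the test (limma adjusted p = 0.0760 and 0.275). Me1 was the single gene of the 10 with another probe set, and this read 11.37 on each WT array, 11.03 to 11.24 in DM and 11.27 to 11.30 in TM. With the mean of both probe sets, DM against WT gave -0.18 and passed (limma adjusted p = 0.0352). TM against WT then gave -0.09 and did not pass. The DM difference passed in 3 of 21 alternative settings, the others being median centring and leaving out DM replicate 3.

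Srxn1 encodes sulfiredoxin, which repairs overoxidized peroxiredoxins in the cytosol. It was lower in both mutants. Its level was 10.74, 10.87 and 10.84 in WT, 10.52, 10.58 and 10.47 in DM and 10.46, 10.35 and 10.36 in TM. The genotypes fell in the order WT, DM, TM with no overlap, although the lowest DM array (10.47) and the highest TM array (10.46) nearly met. The log2 difference from WT was -0.29 ± 0.061 in DM (SE, limma adjusted p = 0.00226) and -0.42 ± 0.061 in TM (SE, limma adjusted p = 0.000150). TM against DM gave -0.13 (limma adjusted p = 0.118).

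Hmox1 encodes heme oxygenase, which opens the heme ring, and was highest in TM. Its level was 10.78, 10.92 and 10.82 in WT, 10.98, 10.90 and 10.99 in DM and 11.39, 11.31 and 11.16 in TM. The TM arrays lay above all others and WT and DM overlapped. The log2 difference of TM was 0.45 ± 0.069 from WT (SE, limma adjusted p = 0.000251), or 1.37-fold, and 0.33 from DM (limma adjusted p = 0.00252). DM against WT gave 0.12 (95% interval -0.03 to 0.27).

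The remaining pathway genes were read from lists ordered by role. Of the 17 measured partners and degraders of NRF2 and NRF1, Maff alone was called. It was lower in DM, where 5.67% of all genes were called lower, and a count of 1 in 17 is near that share. Maff encodes a small MAF protein and fell by 0.67 in DM on the log2 scale, and its value in TM was -0.37. The other small MAF genes, Mafg and Mafk, did not pass the adjusted p against WT (-0.14 and -0.01 in DM, -0.14 and -0.21 in TM). Bach1 and Bach2 encode repressors that compete for the same sites. The log2 difference of Bach2 was -0.48 in DM and -0.01 in TM, and that of Bach1 was 0.04 and 0.22. Sqstm1, whose product p62 draws KEAP1 into autophagy and which is itself an NRF2 target, differed by 0.26 in DM and 0.22 in TM, both past the adjusted p. Cul3 differed by -0.10 and 0.16 and did not pass.

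Of 9 further NADPH-linked enzymes, none was higher by the adjusted p in either mutant, and 6 were lower in DM and 2 in TM, where 19.8% and 18.0% of all genes were lower. The count in TM is near that share, and the count in DM was 4 under cyclic loess or without WT replicate 2, WT replicate 3 or DM replicate 2. Rpia, ribose-5-phosphate isomerase, alone was called, with a log2 difference of -0.59 in DM at the edge of the fold limit. Of all genes, 5.67% were called lower in DM. Rpia was not called after quantile normalization or cyclic loess, or without WT replicate 2, DM replicate 2 or DM replicate 3. Its value in TM was -0.43. Tkt, transketolase, differed by -0.38 and -0.30, both past the adjusted p. Idh1, the cytosolic isocitrate dehydrogenase, differed by -0.44 in DM (limma adjusted p = 0.00367) and -0.19 in TM, and Me2 by -0.35 and -0.14. The median log2 difference of the 9 genes was -0.35 in DM and -0.14 in TM.

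The thioredoxin system showed no call among 5 measured genes, where 3.56% to 5.67% of all genes were called in each direction. With 5 genes, the lack of a call does not set the list apart. Txnrd1, which encodes thioredoxin reductase and is a classical NRF2 target, came nearest, with a log2 difference of 0.58 in DM just under the fold limit (limma adjusted p = 2.3e-05). One gene of the list was called higher in DM after quantile normalization or cyclic loess and without WT replicate 2 or DM replicate 2. Between TM and DM it differed by -0.49, and against WT in TM by 0.08. Prdx1 differed by 0.25 in DM (limma adjusted p = 0.0297), while Txn1, Prdx2 and Prdx3 did not pass in any comparison.

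Heme and iron genes changed in named members without a common direction. Of 9 genes, 2 were called higher in DM and 1 in TM, beside 5.28% and 5.59% of all genes. None was called lower than in WT, except 1 in TM with median centring or without WT replicate 1 or TM replicate 1. Blvrb, a biliverdin reductase, rose by 0.73 in DM and 0.78 in TM on the log2 scale. Slc40a1 encodes ferroportin, the iron exporter, and rose by 1.88 in DM, with a value of 0.05 in TM. The WT level of Slc40a1, 6.49, lay below every array median. Blvra, the other biliverdin reductase, differed by -0.01 in DM and -0.41 in TM. The ferritin chains Fth1 and Ftl1 differed by 0.18 and -0.17 in DM and by 0.13 and -0.22 in TM. Abcb6, a porphyrin transporter of the mitochondrion, stood at -0.44 and -0.55, and Hmox2, the constitutive heme oxygenase, at -0.36 and -0.30, all past the adjusted p and under the fold limit.

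Of 10 detoxification enzymes, 4 were called higher in DM, 2 in TM and none lower in either, beside 5.28% and 5.59% of all genes called higher. The counts became 5 and 3 without WT replicate 2, and 3 in TM also after quantile normalization or cyclic loess. Aldh1a1, a retinaldehyde dehydrogenase, rose by 4.62 on the log2 scale in DM, and Aox1, aldehyde oxidase, by 2.34. The WT level of Aldh1a1 was 6.16, below every array median, and no detection calls were used here, so the size of its difference depends on the background of its probe set. In TM these genes were at 0.16 and 0.18 from WT, and from DM to TM Aldh1a1 fell by 4.46 and Aox1 fell by 2.17. Aldh3a1 rose by 0.75 in DM, from 6.76 to 7.50, both below every array median. Ephx1, microsomal epoxide hydrolase, rose in both mutants, by 2.12 and 2.09. Cbr3, a carbonyl reductase, rose in TM alone of the comparisons with WT, by 1.02, and exceeded DM by 0.96. Nqo2, the relative of Nqo1, differed by 0.28 in DM (limma adjusted p = 0.0212) and 0.06 in TM. All 10 genes had a difference above 0 in DM, where Nqo1 fell, beside 11133 of all 19938 genes above 0. The smallest was that of Cbr3 (0.06, limma adjusted p = 0.694), and median centring lowered every difference in DM by more than this.

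The 5 efflux pumps of the Abcc family gave no call, where 3.56% to 5.67% of all genes were called in each direction. At such shares a list of 5 genes is too short for the lack of a call to set it apart. Abcc1, an exporter of glutathione conjugates, differed by -0.42 in DM and Abcc5 by 0.47, both past the adjusted p. In TM, Abcc3 differed by 0.19 (limma adjusted p = 0.0406) and the other 4 did not pass.

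NRF2 targets of glutathione metabolism, measured on the same arrays, were divided in DM as well. Of 11 genes, 4 were called higher and 2 lower in DM (beside 5.28% and 5.67% of all genes), and 2 higher and 1 lower in TM (beside 5.59% and 3.56%). After quantile normalization or cyclic loess these were 5 and 1 in DM and 2 and 0 in TM. Leaving out single arrays gave 1 to 2 lower in DM and 0 to 3 lower in TM, the 0 without TM replicate 3 and the 3 without TM replicate 2. Mgst1, at 5.41 in WT and so below every array median, was higher by 5.85 and 4.59 on the log2 scale. In DM the transferases Gsta4, Gstm1 and Gsta3 rose by 1.29, 1.01 and 0.80, and Gss and Gclm, of glutathione synthesis, differed by -0.97 and -0.65. The levels of Gsta3 in WT and DM, 6.40 and 7.20, lay below every array median. In TM the cystine transporter Slc7a11 rose by 0.94 and Gss differed by -0.62.

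**Figure D3:**
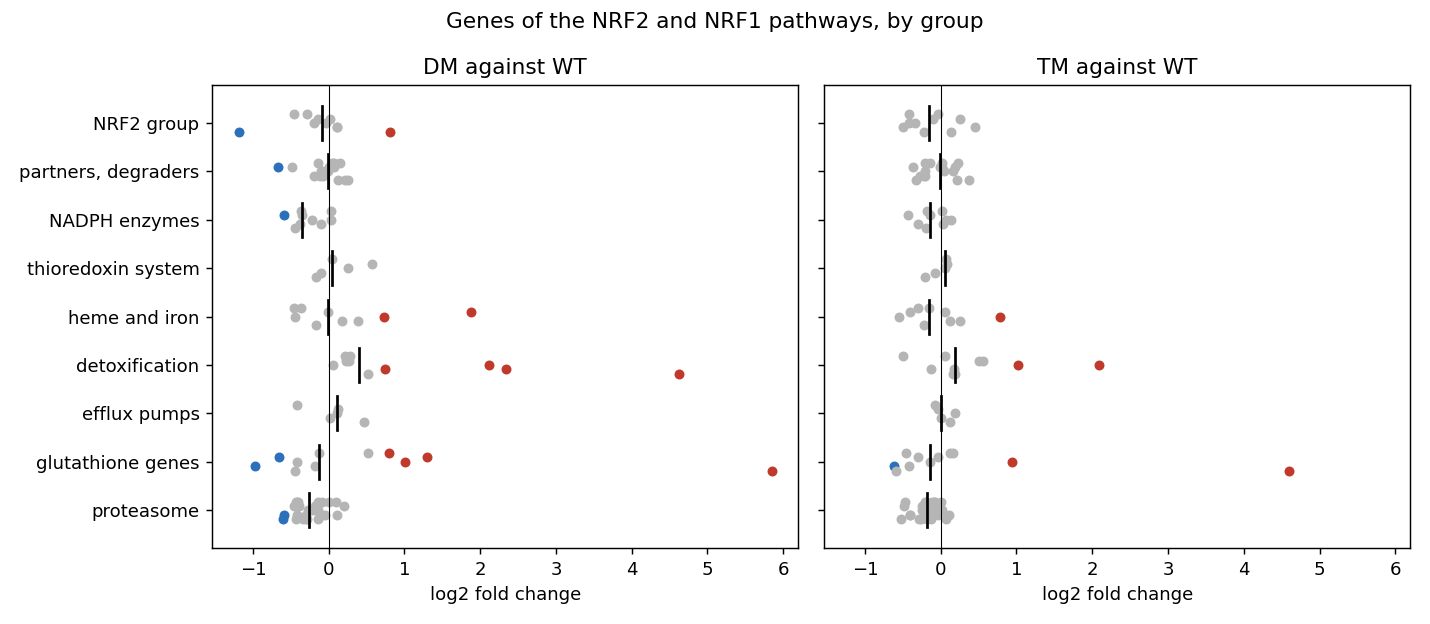
Log2 fold change (x axis) of each measured gene of the NRF2 and NRF1 pathway groups in DM and in TM against WT, with the group median (black bar). Red and blue mark genes called higher and lower and grey those not called. Detoxification and glutathione genes spread widest, up to 4.62 and 5.85 in DM, and the medians of the NADPH and proteasome groups lie at -0.35 and -0.26 in DM and at -0.14 and -0.18 in TM.

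Proteasome subunit genes are the known targets of NRF1. Of 31 measured subunits, 27 had a log2 difference below 0 in DM and 27 in TM, beside 8802 and 11625 of all 19938 genes. The medians of the 31 subunits were -0.26 and -0.18. By the adjusted p, 17 were lower in DM and 13 in TM, where 19.8% and 18.0% of all genes were lower, and the others did not pass. None was higher, except 1 in DM after quantile normalization or cyclic loess. The counts lower ran from 13 to 23 in DM and from 6 to 17 in TM over the other scalings. Without WT replicate 1, TM replicate 2 or TM replicate 3 the count in TM was 7, 6 and 7. The medians stayed below 0 under every scaling. The calls were Psmd13 (-0.61) and Psmd4 (-0.59) in DM, both in the regulatory particle. This count of 2 in 31 is near the 5.67% of all genes called lower in DM. In TM 0 were called, beside 3.56% of all genes called lower. Neither Psmd13 nor Psmd4 was called after quantile normalization, cyclic loess or leaving out DM replicate 2, while 1 was called without WT replicate 2. Of the core particle, Psma7 differed by -0.46 and -0.49 and Psmb7 by -0.41 in both mutants. Psma5 differed by -0.31 in DM and -0.53 in TM. Nfe2l1 mRNA itself differed from WT by 0.02 in DM and 0.25 in TM. Ngly1, the glycanase that trims NRF1 after its release from the ER, differed by 0.21 in DM and 0.38 in TM (limma adjusted p = 0.0733 and 0.00411).

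**Figure D4:**
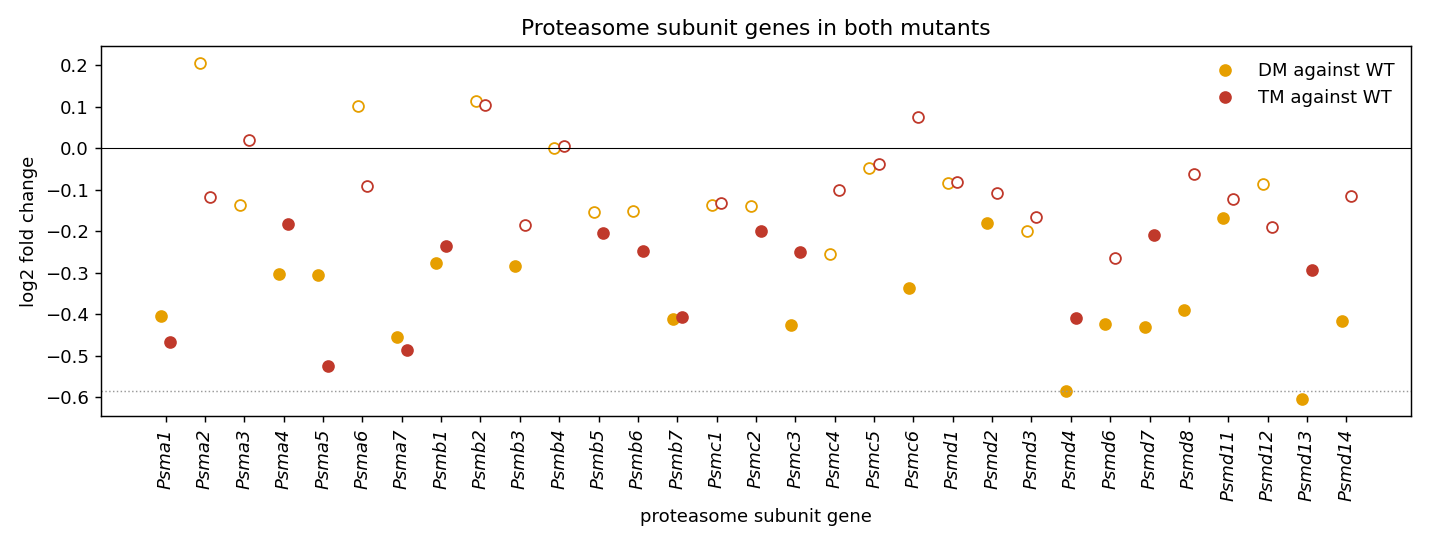
Log2 fold change (y axis) of 31 proteasome subunit genes (x axis) in DM (orange) and TM (red) against WT. Filled points passed an adjusted p of 0.05, open points did not, and the dotted line is the 1.5-fold limit. In each mutant 27 of the 31 points lie below 0, and all filled points do. Of all 19938 genes, 8802 lay below 0 in DM and 11625 in TM.

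Nqo1 is also a classical target of the aryl hydrocarbon receptor (AHR), so the genes of that pathway were read beside it. Of 6 genes, 2 were called higher and 1 lower in each mutant against WT. The shares of all genes called higher and lower were 5.28% and 5.67% in DM and 5.59% and 3.56% in TM. Cyp1b1, a cytochrome P450, rose by 6.04 in DM and 5.43 in TM, and Tiparp, a feedback repressor of the receptor, fell by 1.54 and 0.80. Ahr itself rose by 0.82 in DM and differed by -0.31 in TM (limma adjusted p = 0.00146). Cyp1a1 rose by 1.78 in TM and was at -0.06 in DM. The WT levels of Cyp1b1 and Cyp1a1, 6.52 and 6.30, lay below every array median. The reported values of Ahr were identical on the 3 WT arrays and those of Tiparp on the 3 TM arrays, so their spread is understated.

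For each of the 3 called genes, the closest patterns over the 9 arrays were sought among the 3285 other genes called in any comparison. Nqo1 was followed most closely by Penk (Pearson r = 0.993), Nepro (0.991) and Plau (0.990). Pgd was nearest to Psmd10 (0.994), Lfng (0.976) and Pgf (0.972), and Osgin1 to Adamts10, Tnip1 and Mmp2 (0.995, 0.995 and 0.994). With 3 genotypes and little spread within each, these values rest on the relative spacing of the 3 genotype means and are given as a description.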

How the data were processed

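RNA of WT, DM and TM MEFs (3 arrays each) was hybridised to Affymetrix mouse gene arrays. The deposited values are log2 expression levels that the authors made by RMA, per the submitters' processing notes, from scanner data handled in GeneSpring GX per the methods. The scanner files were not analysed here. Of 35556 probe sets, 21789 had a single symbol in GEO's platform annotation, 1621 had several and 12146 were not listed. Of these, 21698 matched RefSeq identifiers, and the brightest probe set stood for each of 19938 genes, 999 of which had several. No value was renormalized or filtered. A linear model over all 9 arrays (limma 3.58.1 in R 4.3.3, empirical Bayes, Benjamini-Hochberg over all genes) gave the 3 comparisons. A call needed an adjusted p under 0.05 and over 1.5-fold. The fit was tested on simulated data. Arrays give no read depth, and their number limits the precision. The rule for named genes took all 10 genes of the group, the mutated genes, up to 4 called genes with the largest change per list and comparison (the 2 largest where none was called), and the 3 genes most like each called gene. Other genes of the lists were named for their role after their values were seen, and the marker lists and the TM against DM calls of the lists are named only in part. These genes and lists were chosen with earlier results of these data known. Alternatives changed the scaling, variance model, test, filter, probe-set rule, thresholds, replicate block and arrays left out. Genes on the lists without a single-symbol probe set (Ddi2, G6pdx, Prdx6, Akr1b7, Ugt1a6a, Adrm1, Ddx3y) were not analysed here.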

Additional observations from a re-analysis of the deposited data

How the results depend on the processing

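Each of the 30 log2 differences of the 10 genes was recomputed under 21 alternative settings. In 29 the call did not change, and the exception was Pgd in TM against DM, which ranged from -0.70 to -0.54 and fell under the fold limit without DM replicate 1, DM replicate 3 or TM replicate 3. The sign held in every setting for 26 of the 30, and the 4 others (Nfe2l1 and Keap1 in DM against WT, Nfe2l2 in TM against WT and Me1 in TM against DM) were not called. The numbers of the 10 genes called in DM against WT, TM against WT and TM against DM were 2, 0 and 3. With no fold limit they were 4, 6 and 7 (of 7340, 6338 and 6350 genes in all, against 2183, 1824 and 1653), and with a 2-fold limit 1, 0 and 0 (of 885, 781 and 676). Leaving out single arrays gave 2 to 3 in TM against DM and left the counts of 2 and 0 in the other comparisons. With the array number as a replicate block the counts were 2, 0 and 3. Arrays sharing a number did not deviate together (9 correlations from -0.24 to 0.17). Taken from means of 3 arrays, these deviations cannot show if such arrays share a culture or batch. By the adjusted p alone, Taldo1 in TM against WT and Hmox1 in TM against DM no longer passed with the methods' t-test after Benjamini-Hochberg adjustment (adjusted p = 0.0860 and 0.0530). The arrays' number and unknown origin limit all comparisons, probe sequences were not examined here, and small differences such as those of the proteasome genes depend on the scaling.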
